A study of Mus musculus with 12 samples.

Results

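The genes described here make and control cholesterol and fatty acids under the sterol regulatory element-binding proteins (SREBPs). A list of 32 sterol synthesis, fatty acid synthesis and SREBP regulator genes was looked up by symbol, and the brightest probe set of each gene, by its average across arrays, was taken. Of these 32 genes, 31 had a probe set assigned to that gene alone, among 19938 genes tested, and Acat2 was not analysed here. By role, the 31 comprise 6 mevalonate pathway genes, 11 sterol pathway genes from Fdft1 to Dhcr7, 6 regulators and 8 fatty acid genes.

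The study asked how red blood cells (RBC) taken from mice on a high-fat diet act on macrophages that engulf them. C57BL/6 mice, 6 weeks old at the start, ate chow or high-fat diet for 12 weeks, and their thioglycollate-elicited peritoneal macrophages were exposed in vitro to RBC of chow-fed mice, RBC of high-fat-fed mice or no RBC. RNA was measured on Affymetrix Mouse Gene 1.0 ST arrays, with 12 arrays in 6 groups of 2: chow macrophages (from chow-fed mice) with no RBC, chow RBC or high-fat RBC, and high-fat macrophages (from high-fat-fed mice) with the same 3 conditions. No group carried a transgene or deletion per the labels, and the labels number the arrays of a group as animal replicates without saying whether animals were pooled, so p-values measure only the spread between these arrays.

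As background, cells low in sterol let SCAP carry SREBP precursors from the endoplasmic reticulum to the Golgi, where proteases release the active transcription factor. Sterol makes INSIG proteins hold SCAP back, so the genes of sterol synthesis fall when cholesterol is plentiful. SREBP-2 (Srebf2) is best known for sterol genes and SREBP-1 (Srebf1) for fatty acid genes. In macrophages, which take up cholesterol with the cells they engulf, the oxysterol receptor LXR drives the opposing export programme.

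Promoter sequence from RefSeq (build GRCm38.p6) was available for 25 of the 32 listed genes, as windows from 250 bases before to 50 bases after the gene start. A window was searched on both strands for 3 motifs: the sterol response element TCACNCCAC, the CCAAT box (CCAAT, bound by NF-Y, a known partner of SREBPs) and the E-box CACGTG. None of these 3 motifs contains another. A CCAAT box lay in a window of 20 of 25 listed genes (80.0%) and of 41.1% of the 27025 genes with a window. The E-box lay in 5 of 25 (20.0%) against 8.1% of genes. The sterol response element in this spelling was found for Hmgcs1 alone, 1 of 25, against 1.4% of genes, and lay 137 bases before its start. These matches are descriptions of letters, with no test, and no match says only that these letters are not in the window. The 250 bases before the start are shown for 5 genes of the pathway that were called higher in high-fat macrophages in at least 1 comparison below, to show the arrangement of these boxes. They lie at chr13:119690101-119690350 (plus strand), chr13:8885356-8885605 (plus strand), chr8:122443423-122443672 (minus strand), chr5:4104698-4104947 (minus strand) and chr8:64733579-64733828 (minus strand). Each is written 5′ to 3′ on the gene's own strand, and capitals mark the motifs, where ATTGG is CCAAT on the opposite strand.
Hmgcs1: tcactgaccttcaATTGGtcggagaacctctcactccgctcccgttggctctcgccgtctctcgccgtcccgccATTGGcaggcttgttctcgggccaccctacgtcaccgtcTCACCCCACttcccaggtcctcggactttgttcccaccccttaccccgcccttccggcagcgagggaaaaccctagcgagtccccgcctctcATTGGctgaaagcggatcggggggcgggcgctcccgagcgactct
Idi1: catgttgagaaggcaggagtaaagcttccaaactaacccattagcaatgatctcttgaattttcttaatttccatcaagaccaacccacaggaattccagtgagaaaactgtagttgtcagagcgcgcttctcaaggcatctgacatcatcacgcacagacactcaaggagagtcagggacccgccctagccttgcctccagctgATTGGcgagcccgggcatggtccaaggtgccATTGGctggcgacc
Mvd: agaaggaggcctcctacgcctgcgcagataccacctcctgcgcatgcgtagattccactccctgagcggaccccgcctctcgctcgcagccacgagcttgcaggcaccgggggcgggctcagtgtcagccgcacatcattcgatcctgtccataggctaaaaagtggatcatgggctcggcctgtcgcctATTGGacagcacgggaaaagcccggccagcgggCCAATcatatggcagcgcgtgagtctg
Cyp51: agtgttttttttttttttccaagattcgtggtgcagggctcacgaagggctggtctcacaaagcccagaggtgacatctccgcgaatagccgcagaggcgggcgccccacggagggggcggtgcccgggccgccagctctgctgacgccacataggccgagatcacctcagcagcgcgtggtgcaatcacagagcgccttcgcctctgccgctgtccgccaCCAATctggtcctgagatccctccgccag
Msmo1: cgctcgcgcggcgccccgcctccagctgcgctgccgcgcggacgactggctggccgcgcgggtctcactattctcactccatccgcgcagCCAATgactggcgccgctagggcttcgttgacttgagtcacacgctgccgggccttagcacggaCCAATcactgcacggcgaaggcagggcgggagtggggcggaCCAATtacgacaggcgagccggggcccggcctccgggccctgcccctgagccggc

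All values are log2 array signals as deposited, on which a difference of 1 is a doubling, and each fold is taken from a log2 difference. Array medians ran from 4.84 to 4.96. The median gap between the 2 replicates over all genes was widest in high-fat macrophages without RBC, at 0.16, against 0.09 to 0.12 in the other groups. For the 31 measured genes that gap was 0.16, and replicate 2 was the higher in 23 of 31. In high-fat macrophages with high-fat RBC their gap was 0.14, and replicate 2 was the higher in 25 of 31. The remaining groups had gaps of 0.06 to 0.12, with replicate 2 the higher in 18 or 19 of 31. Of 8 macrophage markers, Cd68 (12.09 to 12.21) and Lyz2 (12.27 to 12.45) varied little over the 12 arrays. Itgam spanned 10.15 to 10.33 on the chow macrophage arrays and 10.35 to 10.52 on the high-fat macrophage arrays, without overlap. Adgre1, Csf1r and Mertk also differed between diets without RBC, as given below. Fcgr1 and Cd14 differed most: they read 8.29 and 8.26, and 10.47 and 10.39, in chow macrophages without RBC, against 6.53 and 6.40, and 8.87 and 8.35, in high-fat macrophages without RBC. Signal over background was not analysed here, and precision is limited by having 2 arrays per group.

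**Figure D1:**
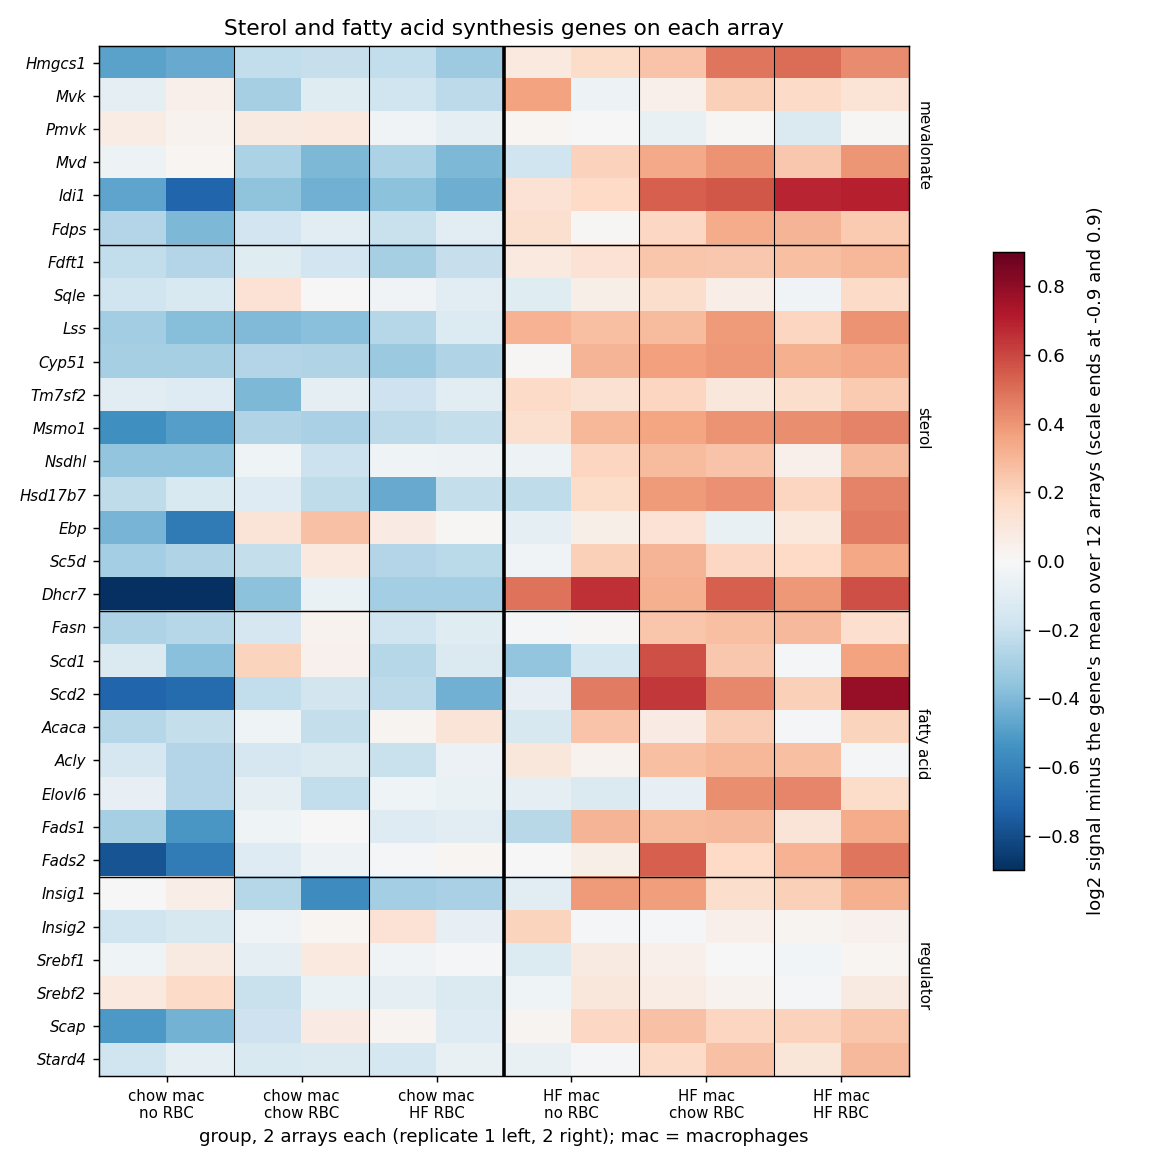
Log2 signal of the 31 measured genes on the 12 arrays, each shown as its difference from that gene's mean over all arrays, with genes ordered by role. The median over the 31 genes lay between -0.26 and -0.11 on the 6 chow macrophage arrays, and between -0.02 and 0.30 on the 6 high-fat macrophage arrays.

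The diet of the macrophage donor was followed by the broadest difference in these genes. Without RBC, 13 of 31 genes were higher in high-fat than in chow macrophages and 0 were lower, where 13.9% of all genes were called in either direction, 8.12% higher and 5.82% lower. Given RBC of either diet, 19 of 31 were higher and 0 lower, where 4.85% of all genes were called, 2.20% higher and 2.65% lower. Calls use limma, with p adjusted by Benjamini-Hochberg across the whole table and a threshold of 0.05. The median difference of the 31 genes was 0.29 without RBC and 0.35 with RBC, beside -0.01 and 0.01 over all genes. Positive differences were found for 27 and 30 of the 31 genes, against 47.7% and 53.6% of all genes. In both comparisons 10 genes were called: Hmgcs1, Idi1, Fdps, Fdft1, Lss, Cyp51, Msmo1, Dhcr7, Scd2 and Fads2. The 2 comparisons use different arrays, but come from 1 fit with a shared estimate of the spread. The labels do not say whether arrays of different groups come from the same animals. The arrays with RBC may therefore add no further animals, and the 2 comparisons are not taken as separate evidence. Without RBC both high-fat arrays lay above both chow arrays for 22 of 31 genes and below for 1. Of all genes 24.4% lay above and another 24.4% below. With RBC the 4 high-fat arrays lay above the 4 chow arrays for 23 of 31 genes and below for 0, where 6.52% and 6.77% of all genes did. All 6 high-fat macrophage arrays lay above all 6 chow macrophage arrays for 12 of 31 genes, which held for 2.67% of all genes, and below them for 0 of 31, against 3.09% of all genes. The genes were chosen with earlier results of these data known, so these shares beside all genes are a description and not a test of the set.

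**Figure D2:**
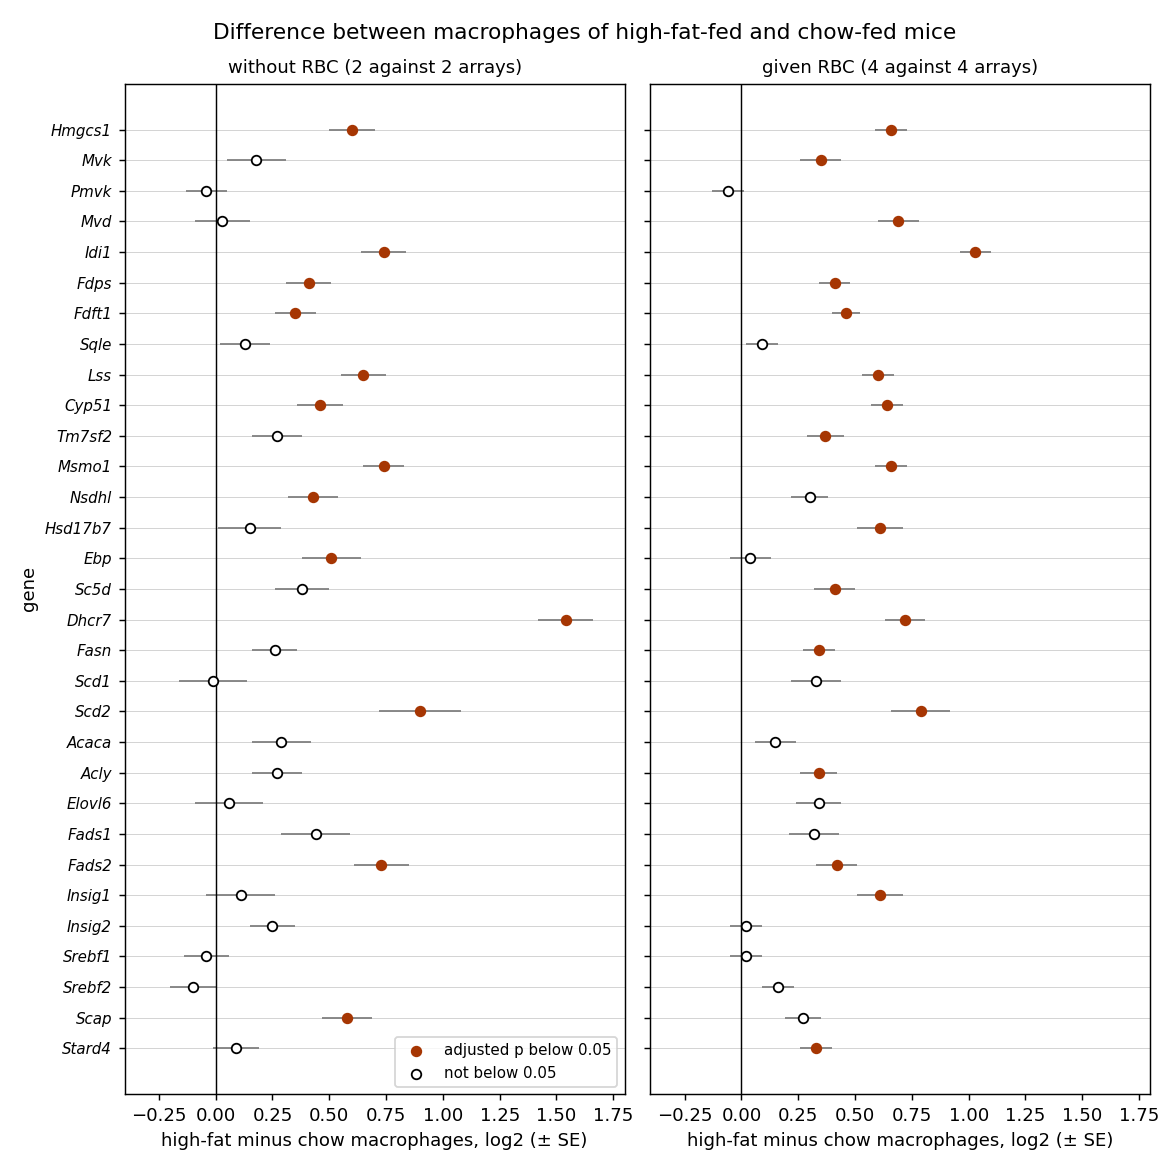
Log2 difference between high-fat and chow macrophages for each gene, without RBC and with RBC, with bars for the standard error from limma and filled points where the adjusted p is below 0.05. Most points lie right of 0, with Dhcr7 at 1.54 the farthest without RBC and Idi1 at 1.03 the farthest with RBC.

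In the mevalonate pathway, which turns acetyl-CoA into isoprenoid units, 3 of 6 genes rose with the macrophage high-fat diet without RBC and 5 of 6 with RBC. Hmgcs1, the synthase that makes HMG-CoA, read 8.0 and 8.03 in chow macrophages without RBC, 8.26 and 8.28 with chow RBC and 8.26 and 8.16 with high-fat RBC. In high-fat macrophages it read 8.57 and 8.65, 8.74 and 8.97, and 8.99 and 8.91 in the same order, so the diets did not overlap. It was higher by 0.60 ± 0.10 (SE, n = 2 arrays per group, adjusted p = 0.001) without RBC and by 0.66 ± 0.07 (adjusted p = 6.0e-05) with RBC. Idi1, the isomerase that supplies the building block of prenyl chains, went from 6.70 and 6.46 without RBC to 6.81 and 6.74 with chow RBC and 6.80 and 6.73 with high-fat RBC in chow macrophages. In high-fat macrophages it stood at 7.30 and 7.35, 7.71 and 7.73, and 7.86 and 7.87. Again no high-fat array fell to the level of a chow array. The difference was 0.74 ± 0.10 (1.67-fold, adjusted p = 1.5e-04) without RBC and 1.03 ± 0.07 (2.04-fold, adjusted p = 6.5e-07) with RBC.

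Mvd, the decarboxylase that forms isopentenyl diphosphate, was called with RBC alone. It read 7.10 and 7.16 in chow macrophages without RBC, and 6.86 and 6.74 with either RBC. High-fat macrophages read 6.97 and 7.35 without RBC, 7.49 and 7.55 with chow RBC and 7.39 and 7.54 with high-fat RBC. Its diets therefore overlapped without RBC and separated with RBC, where the difference was 0.69 ± 0.09 (adjusted p = 2.1e-04). Without RBC no difference was called for Mvd: its fitted value was 0.03, and it became -0.16 when replicate 2 of high-fat macrophages without RBC was left out. Fdps, which joins prenyl units, was higher by 0.41 in both comparisons (adjusted p = 0.016 and 0.0039). Mvk, the first kinase of the pathway, was higher by 0.35 ± 0.09 with RBC (adjusted p = 0.045), a call lost without any of 10 of the 12 arrays (adjusted p = 0.056 to 0.17). Pmvk, the second kinase, was the measured gene whose high-fat arrays all lay below the chow arrays without RBC, at 5.99 and 5.97 against 6.04 and 6.00, and its difference was not called.

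Of the 11 genes from squalene formation to cholesterol, 7 rose without RBC and 8 with RBC. Dhcr7, the reductase of the last step, had the largest difference without RBC. Chow macrophages read 7.08 and 7.08 without RBC, 7.67 and 7.98 with chow RBC and 7.74 and 7.74 with high-fat RBC. High-fat macrophages read 8.53 and 8.70, 8.36 and 8.58, and 8.43 and 8.62. Every high-fat array was above every chow array, and the chow arrays without RBC were the lowest of all. The difference was 1.54 ± 0.12 without RBC (2.90-fold, adjusted p = 9.3e-07) and 0.72 ± 0.09 with RBC (adjusted p = 1.5e-04).

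Fdft1, squalene synthase, read 8.63 and 8.59, 8.74 and 8.68, and 8.55 and 8.64 in chow macrophages for no RBC, chow RBC and high-fat RBC. The high-fat arrays read 8.94 and 8.98, 9.10 and 9.09, and 9.12 and 9.15 in that order. These ranges did not overlap, and the differences were 0.35 ± 0.09 (adjusted p = 0.018) and 0.46 ± 0.06 (adjusted p = 5.2e-04). Lss, which cyclises squalene epoxide to lanosterol, spanned 5.54 to 5.81 over the 6 chow arrays and 6.13 to 6.34 over the 6 high-fat arrays, with no overlap. Its pairs in the same group order were 5.62 and 5.55, 5.54 and 5.56, and 5.68 and 5.81 in chow, and 6.25 and 6.21, 6.22 and 6.32, and 6.13 and 6.34 in high-fat macrophages. It was higher by 0.65 ± 0.10 (adjusted p = 5.7e-04) and 0.60 ± 0.07 (adjusted p = 1.4e-04).

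Cyp51, the lanosterol demethylase, read 7.72 and 7.72, 7.76 and 7.75, and 7.69 and 7.75 in chow macrophages. It read 8.03 and 8.33, 8.39 and 8.41, and 8.34 and 8.36 in high-fat macrophages. The chow arrays were nearly level and all lay below the high-fat arrays, with differences of 0.46 ± 0.10 (adjusted p = 0.0084) and 0.64 ± 0.07 (adjusted p = 1.1e-04). Msmo1, the methylsterol oxidase that acts after it, read 8.39 and 8.45, 8.67 and 8.65, and 8.71 and 8.73 in chow and 9.09 and 9.24, 9.30 and 9.35, and 9.36 and 9.39 in high-fat macrophages. It too separated the diets fully, by 0.74 ± 0.09 (adjusted p = 7.3e-05) and 0.66 ± 0.07 (adjusted p = 2.7e-05). Nsdhl, the sterol dehydrogenase of the same demethylation, was called without RBC at 0.43 ± 0.11 (adjusted p = 0.02).

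Hsd17b7, a ketosteroid reductase of the pathway, read 6.42 and 6.51, 6.53 and 6.42, and 6.19 and 6.43 in chow macrophages. High-fat macrophages read 6.42 and 6.81 without RBC, 7.03 and 7.06 with chow RBC and 6.84 and 7.09 with high-fat RBC. The diets overlapped without RBC and separated with RBC, by 0.61 ± 0.10 (adjusted p = 0.0016). Ebp, the sterol isomerase, read 7.05 and 6.83 in chow macrophages without RBC, 7.58 and 7.73 with chow RBC and 7.54 and 7.48 with high-fat RBC. It read 7.38 and 7.52, 7.60 and 7.40, and 7.56 and 7.93 in high-fat macrophages. The diets differed without RBC, by 0.51 ± 0.13 (adjusted p = 0.018), and overlapped with RBC, where the difference was 0.04 (adjusted p = 0.9) and took the opposite sign, -0.01 or -0.05, without replicate 1 of high-fat macrophages with chow RBC or replicate 2 of those with high-fat RBC. Sc5d, a sterol desaturase, and Tm7sf2, a sterol reductase, were called with RBC at 0.41 ± 0.09 (adjusted p = 0.011) and 0.37 ± 0.08 (adjusted p = 0.012). Sqle, the epoxidase that is often rate limiting, was called in neither comparison and spanned 7.83 to 8.18 over all arrays.

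**Figure D3:**
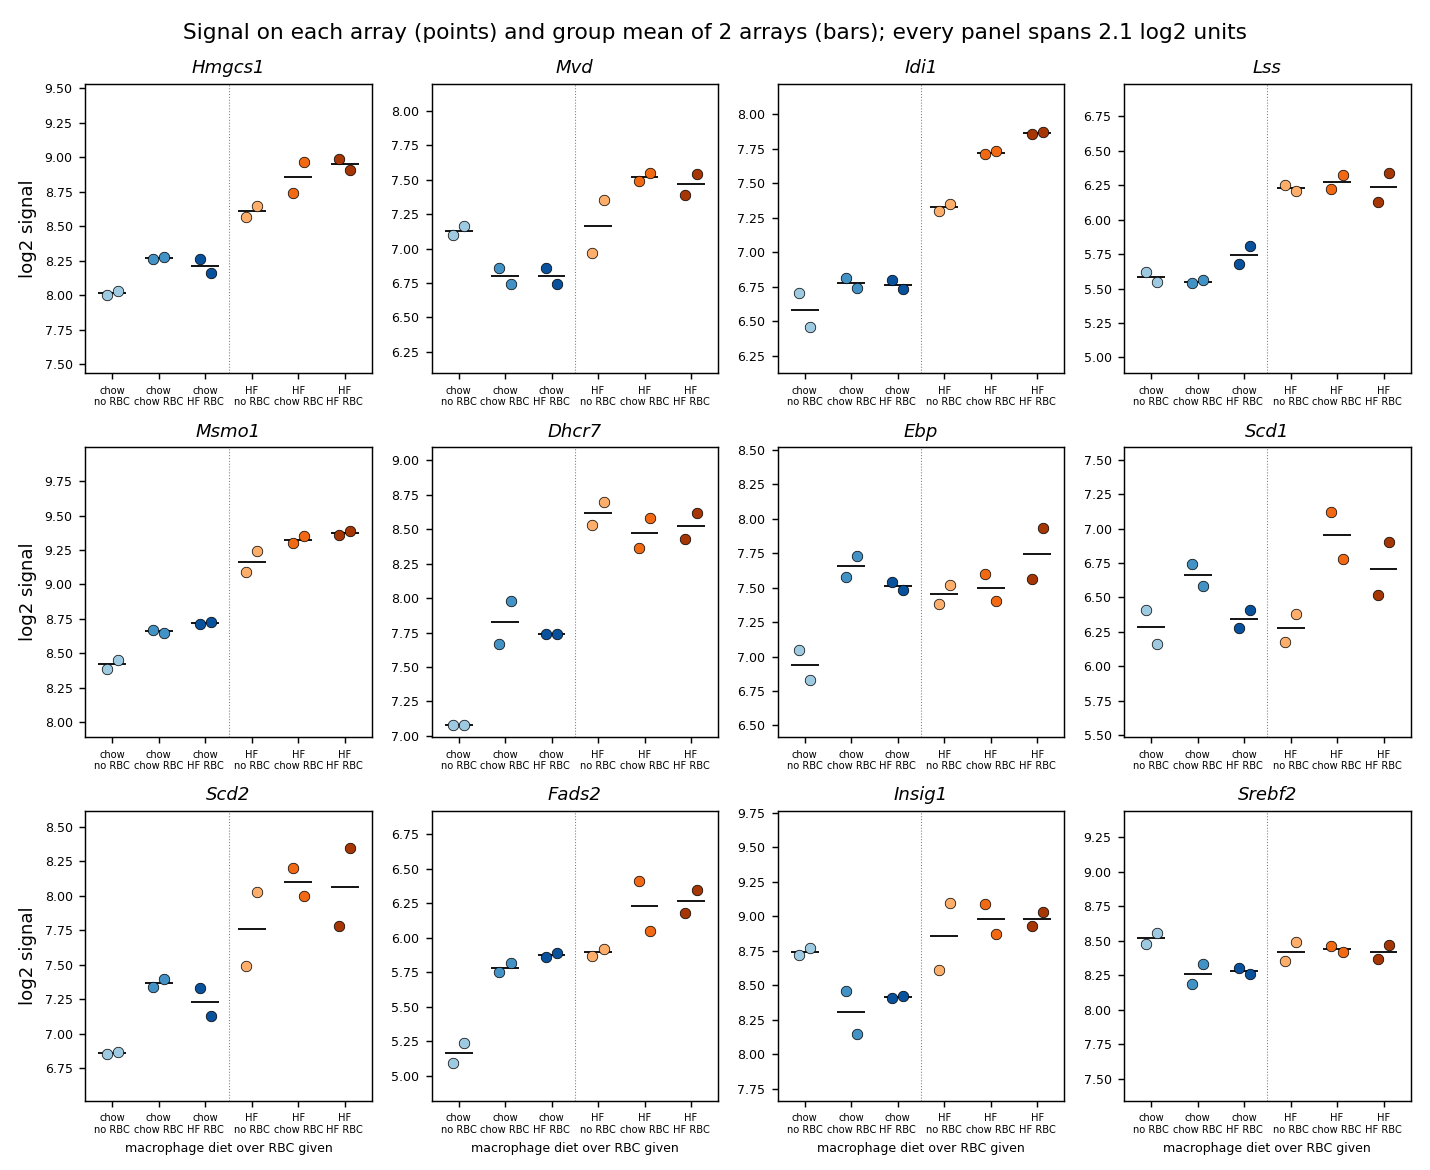
Log2 signal on each array for 12 genes, with 1 point per array and the group mean as a line. Dhcr7 in chow macrophages without RBC reads 7.08 on both arrays and at least 7.67 with RBC, while Mvd reads 7.10 and 7.16 without RBC and 6.86 or less with RBC.

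Among the 6 regulators, 1 rose with the macrophage high-fat diet without RBC and 2 with RBC. Srebf1 stayed between 6.96 and 7.17 on all 12 arrays, with 7.04 and 7.16, 7.00 and 7.17, and 7.05 and 7.07 in chow and 6.96 and 7.16, 7.13 and 7.08, and 7.06 and 7.10 in high-fat macrophages. Its groups overlapped throughout. Srebf2 read 8.48 and 8.56 in chow macrophages without RBC, 8.19 and 8.33 with chow RBC and 8.30 and 8.26 with high-fat RBC, and 8.35 and 8.49, 8.46 and 8.42, and 8.37 and 8.47 in high-fat macrophages. With RBC its high-fat arrays stood above the chow arrays, and the difference of 0.16 was not called (adjusted p = 0.25).

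Scap, the escort of the SREBP precursors, read 7.37 and 7.46 in chow macrophages without RBC, 7.70 and 7.96 with chow RBC and 7.91 and 7.77 with high-fat RBC. In high-fat macrophages it read 7.91 and 8.07, 8.15 and 8.08, and 8.09 and 8.13. It was higher by 0.58 ± 0.11 without RBC (adjusted p = 0.0026), and the 0.27 with RBC was not called (adjusted p = 0.065). Insig1, which retains SCAP and is itself an SREBP target, read 8.72 and 8.77, 8.46 and 8.15, and 8.41 and 8.42 in chow and 8.61 and 9.10, 9.09 and 8.87, and 8.93 and 9.03 in high-fat macrophages. It overlapped without RBC and differed by 0.61 ± 0.10 with RBC (adjusted p = 0.0029). Insig2, its relative, read 6.80 and 6.84, 6.95 and 7.00, and 7.11 and 6.91 in chow and 7.18 and 6.97, 6.97 and 7.03, and 7.01 and 7.02 in high-fat macrophages, and was called in neither comparison. Stard4, a carrier that moves cholesterol between membranes, was called with RBC at 0.33 ± 0.07 (adjusted p = 0.013).

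Of the 8 fatty acid genes, 2 rose without RBC and 4 with RBC. Scd2, a stearoyl-CoA desaturase, read 6.85 and 6.87, 7.34 and 7.40, and 7.33 and 7.13 in chow macrophages and 7.49 and 8.03, 8.20 and 8.0, and 7.78 and 8.35 in high-fat macrophages. The diets did not overlap, although its high-fat replicates were among the widest apart, and the differences were 0.90 ± 0.18 (1.87-fold, adjusted p = 0.0037) and 0.79 ± 0.13 (adjusted p = 0.0021). Fads2, the first desaturase of polyunsaturated fatty acid synthesis, read 5.09 and 5.24, 5.75 and 5.82, and 5.86 and 5.89 in chow and 5.87 and 5.92, 6.41 and 6.05, and 6.18 and 6.35 in high-fat macrophages. Within each RBC condition its high-fat arrays were above its chow arrays, by 0.73 ± 0.12 (adjusted p = 8.5e-04) without RBC and 0.42 ± 0.09 (adjusted p = 0.01) with RBC.

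Fasn, the fatty acid synthase, and Acly, which makes its acetyl-CoA, were called with RBC at 0.34 each (adjusted p = 0.01 and 0.021). Scd1, the paralog of Scd2, was not called in either comparison, and its 0.33 with RBC had an adjusted p of 0.11. Acaca, the acetyl-CoA carboxylase, Elovl6, an elongase, and Fads1, the second desaturase, were also not called. Acaca has 2 probe sets that gave 0.29 and 0.07 without RBC, and 0.15 and 0.39 with RBC, the brighter probe set used here being the first of each. Fdft1 and Idi1 each have 2 as well, which gave 0.35 and 0.22, and 0.74 and 0.73, without RBC. With RBC they gave 0.46 and 0.48, and 1.03 and 1.09. With the mean of its probe sets, Fdft1 lost its call without RBC (limma adjusted p = 0.13).

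Single arrays mattered for the smaller differences. Without RBC, 8 of the 13 calls (Hmgcs1, Idi1, Lss, Msmo1, Dhcr7, Scap, Scd2 and Fads2) were kept whichever array was left out. Fdps, Fdft1, Cyp51, Nsdhl and Ebp all lost their call without replicate 2 of chow macrophages without RBC, with adjusted p of 0.15, 0.11, 0.056, 0.099 and 0.18, which left 8 calls. With RBC, 12 of 19 were kept in the same way, and Mvk, Tm7sf2, Sc5d, Stard4, Fasn, Acly and Fads2 were not.

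**Figure D4:**
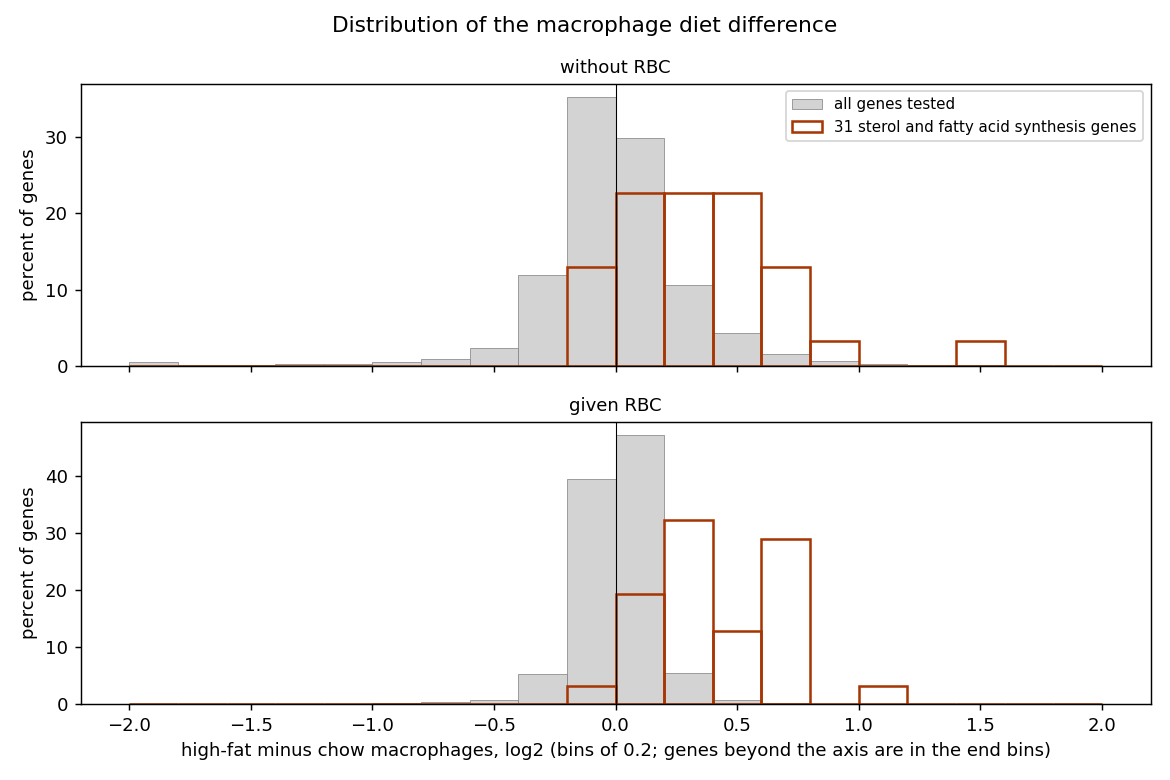
Distribution of log2 differences between high-fat and chow macrophages over all 19938 genes, without RBC and with RBC, as grey bars in percent per bin, with the 31 genes as outlined bars. The median of the 31 genes, 0.29 and 0.35, was exceeded by 11.7% and 1.55% of all genes.

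Some markers of other cell types also differed with macrophage diet. In a bulk sample, fewer cells of a type and less RNA per cell cannot be told apart. Without RBC, where 8.12% of all genes were called higher and 5.82% lower, all 6 B cell markers were lower in high-fat macrophages, and their summed log2 level was 8.34 to 8.48 in chow and 7.18 to 7.28 in high-fat macrophages. The corresponding counts were 1 higher and 4 lower of 8 macrophage markers, 0 and 3 of 11 neutrophil, 0 and 2 of 8 platelet, 1 and 0 of 7 erythroid, 1 and 1 of 8 eosinophil and mast cell, 1 and 1 of 7 dendritic cell, 3 and 0 of 9 mesothelial and fibroblast, 1 and 0 of 7 adipocyte, and 0 and 0 of 8 T and NK cell markers. The macrophage markers that were lower were Cd14 (-1.82), Fcgr1 (-1.81), Adgre1 (-1.17) and Csf1r (-0.81), Mertk was higher (0.51), and the sum over the 8 markers was 13.92 to 13.93 in chow and 13.65 to 13.75 in high-fat macrophages. Adipocyte markers summed to 9.32 to 9.34 in chow and 9.57 to 9.59 in high-fat macrophages. Most of this sum came from the brightest marker, Pparg, at 8.93 and 8.87 in chow and 9.24 and 9.24 in high-fat macrophages. Of the 7 differences, 4 were positive and 3 negative. Adipoq, the adipocyte hormone, stood at 3.10 to 3.45 over all 12 arrays. With RBC, where 2.20% of all genes were higher and 2.65% lower, the B cell count was 3 lower of 6 and the macrophage count 3 lower of 8. Also lower were 2 of 11 neutrophil, 1 of 8 platelet and 1 of 9 mesothelial and fibroblast markers. For 7 dendritic cell markers the count was 1 higher and 1 lower, as it was for 8 eosinophil and mast cell markers. The part of these markers in the sterol and fatty acid results was not tested.

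Exposure to RBC changed fewer of these genes. In chow macrophages, 4 of 31 genes rose with chow RBC, where 9.18% of all genes were called, 6.23% higher and 2.94% lower. The same 4 rose with high-fat RBC, where 8.34% of all genes were called, 5.41% higher and 2.93% lower. The share of members called, 12.9% in each, rests on these 4 genes, and both comparisons share the arrays without RBC. At an unadjusted limma p below 0.05 the counts were 12 and 10 of 31 in either direction, beside 23.9% and 23.3% of all genes. Dhcr7 rose by 0.74 ± 0.12 with chow RBC and, with RBC of the other diet, by 0.66 ± 0.12 (adjusted p = 0.0017 and 0.0041). Ebp rose by 0.71 ± 0.13 and 0.57 ± 0.13 (adjusted p = 0.0037 and 0.016), Fads2 by 0.62 ± 0.12 and 0.71 ± 0.12 (adjusted p = 0.0053 and 0.002), and Scap by 0.41 ± 0.11 and 0.43 ± 0.11 (adjusted p = 0.031 and 0.028). The chow RBC count fell from 4 to 2 without either array of chow macrophages without RBC, and the high-fat RBC count to 2 without replicate 1 or 2 of its exposed group or replicate 2 of the group without RBC. The chow RBC count was instead 7 without either replicate of high-fat macrophages without RBC, arrays outside the contrast that share its spread, when Mvd and Insig1 were called lower.

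Some genes read lower with RBC in chow macrophages without being called on the deposited scale. Insig1 differed by -0.44 ± 0.15 with chow RBC (adjusted p = 0.085) and -0.33 with high-fat RBC (adjusted p = 0.2), Mvd by -0.32 and -0.33 (adjusted p = 0.12 in both), and Srebf2 by -0.27 with chow RBC (adjusted p = 0.11). With quantile normalization of the same values, Mvd was called lower with both RBC (adjusted p = 0.028 and 0.032) and Insig1 with chow RBC (adjusted p = 0.04), while Scap lost both calls (adjusted p = 0.091 and 0.069). The counts were then 3 higher and 2 lower with chow RBC, and 3 higher and 1 lower with high-fat RBC. The exposed arrays all lay below the arrays without RBC for 4 of 31 genes, Mvk, Mvd, Insig1 and Srebf2, beside 20.6% of all genes, and all above for 16 of 31, beside 20.2%. Taken separately, chow RBC arrays were all above for 21 and all below for 4 genes, beside 25.8% and 28.3% of all genes, and high-fat RBC arrays for 18 and 5, beside 26.4% and 32.3%. Over the same arrays, where 6.23% and 5.41% of all genes were higher and 2.94% and 2.93% lower with chow and high-fat RBC, 5 of 11 neutrophil markers were higher and 1 lower with either RBC. Higher were also 4 and 3 of 8 platelet, 2 and 1 of 7 erythroid and 2 and 2 of 9 mesothelial and fibroblast markers. With either RBC 1 of 8 macrophage markers was higher and 2 lower, and 4 and 5 of 6 B cell markers were lower. No adipocyte, dendritic cell, T and NK cell or eosinophil and mast cell marker was called by limma in either, where 0 and 1 of 7, 0 and 0 of 7, 2 and 2 of 8, and 2 and 1 of 8 had an unadjusted p below 0.05, beside 23.9% and 23.3% of all genes. The summed neutrophil level was 10.71 to 10.82 without RBC and 11.59 to 11.85 with RBC. Their part in these results was not tested.

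In high-fat macrophages, 0 of 31 genes were called with chow RBC, where 0.647% of all genes were (0.557% higher and 0.0903% lower), and 8 of 31 had an unadjusted limma p below 0.05, beside 9.65% of all genes. With high-fat RBC 1 gene was called, Idi1, which rose by 0.54 ± 0.10 (adjusted p = 0.022), where 0.752% of all genes were called, 0.647% higher and 0.105% lower. The Idi1 call was lost without either high-fat RBC array (adjusted p = 0.12 and 0.16) or without replicate 1 of the group without RBC (adjusted p = 0.13). With high-fat RBC 11 of 31 genes had an unadjusted limma p below 0.05, beside 8.73% of all genes. Scd1 gave the largest difference with chow RBC, 0.67 ± 0.15 (adjusted p = 0.07), followed by Hsd17b7 at 0.43 (adjusted p = 0.27), Idi1 at 0.40 ± 0.10 (adjusted p = 0.13) and Mvd at 0.37 (adjusted p = 0.3). All exposed arrays lay above both arrays without RBC for 14 of 31 genes, beside 8.87% of all genes, and below for 0, beside 8.0%. Leaving out replicate 2 of high-fat macrophages without RBC raised the chow RBC count from 0 to 3: Mvd, Hsd17b7 and Scd1. Leaving out either array of high-fat macrophages with high-fat RBC raised it to 1. In these contrasts 3 and 4 of 11 neutrophil markers were higher with chow and high-fat RBC, by up to 5.84 and 6.72, as were 4 and 3 of 8 platelet markers, by up to 5.47 and 4.65, and 2 and 2 of 8 macrophage markers, beside 0.557% and 0.647% of all genes. Also higher were 1 of 7 erythroid markers with chow RBC, by 1.97, and 1 of 7 dendritic cell markers with high-fat RBC, by 0.59. The summed neutrophil level was 10.51 to 10.71 without RBC, 11.39 to 11.53 with chow RBC and 12.08 to 12.15 with high-fat RBC. The part of these markers in the results was not tested.

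**Figure D5:**
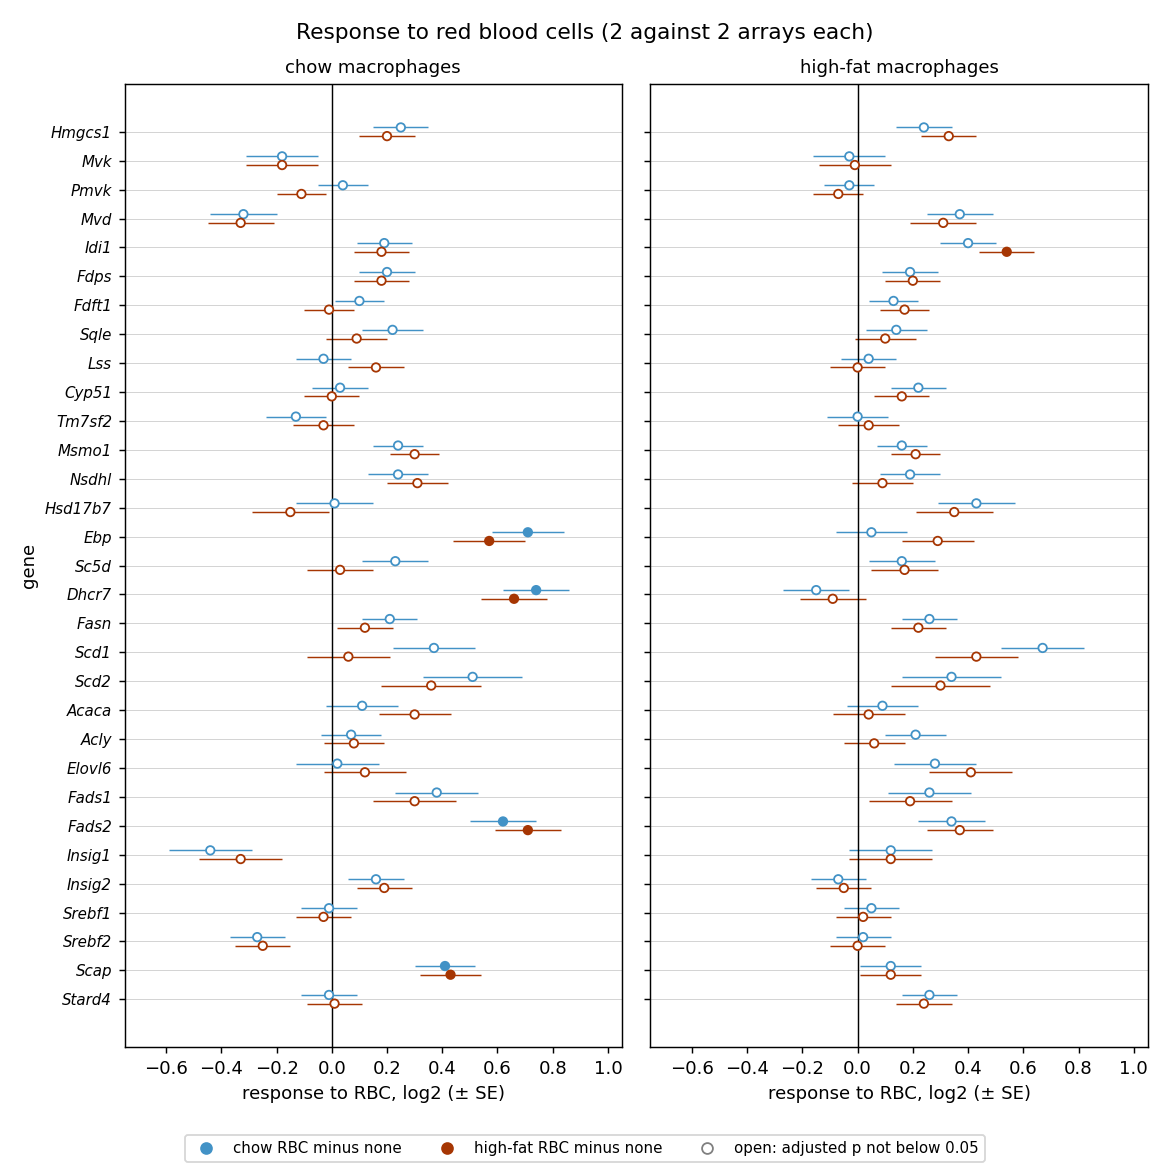
Log2 difference with RBC against none for each gene, in chow and in high-fat macrophages, for RBC of each diet, with standard errors as bars and filled points where called. Dhcr7 stands at 0.74 and 0.66 in chow macrophages and at -0.15 and -0.09 in high-fat macrophages, and Mvd at -0.32 and -0.33 against 0.37 and 0.31.

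The difference between the RBC responses of the 2 macrophage diets was tested directly, as the mean response to both RBC in high-fat macrophages minus that in chow macrophages. It was called for 2 of 31 genes, 1 higher and 1 lower, where 5.67% of all genes were called, 2.57% higher and 3.10% lower. Dhcr7 gave -0.82 ± 0.15 (adjusted p = 0.005), from the rise in chow macrophages against -0.15 and -0.09 in high-fat macrophages, the second of which was 0.01 without replicate 1 of high-fat macrophages with high-fat RBC. Mvd gave 0.66 ± 0.15 (adjusted p = 0.018), from readings that were lower with RBC in chow macrophages and higher in high-fat macrophages, and this call was lost without either array of chow macrophages without RBC (adjusted p = 0.052 and 0.096) or replicate 1 of high-fat macrophages without RBC (adjusted p = 0.065). The values for Insig1 (0.50 ± 0.18, adjusted p = 0.15), Ebp (-0.47 ± 0.16, adjusted p = 0.12), Fads2 (-0.31, adjusted p = 0.3) and Scap (-0.30, adjusted p = 0.26) were not called. The count rose to 4 without replicate 2 of high-fat macrophages without RBC, with Hsd17b7 and Insig1 added. Because the arrays without RBC enter both this test and the comparison of diets without RBC, the 2 are not separate evidence.

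No gene of the set was called between RBC of high-fat-fed and of chow-fed mice. Of 31 genes, 0 were called in chow macrophages (0% of all genes), 0 in high-fat macrophages (0.0251%), 0 on the average of both (0.0100%) and 0 in the interaction of RBC diet with macrophage diet (0%). At an unadjusted limma p below 0.05 the counts were 0, 0, 1 and 0, beside 2.78%, 3.96%, 3.15% and 3.60% of all genes. The 1 gene was Scd1, lower with high-fat RBC by 0.27 on average (95% interval -0.50 to -0.05). The averaged differences of the 31 genes spanned -0.27 to 0.11. Their 95% intervals reached 0.14 to 0.28 to each side, and 0.19 to 0.39 within 1 macrophage diet. A difference smaller than its interval's reach could not be told from 0 at an unadjusted limma p below 0.05. Larger differences are needed at the adjusted threshold.

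Other genes of the pathway were taken from 5 further lists with 54 of 66 genes measured. Between macrophage diets without RBC, 7 of 54 were higher and 8 lower, where 8.12% and 5.82% of all genes were. With RBC 3 were higher and 2 lower, where 2.20% and 2.65% of all genes were. By list, without RBC these were 1 and 0 of 8 other mevalonate and sterol genes, 2 and 3 of 13 SREBP processing and sterol transport genes, 4 and 2 of 20 other fatty acid synthesis genes, 0 and 3 of 7 LXR genes, and 0 and 0 of 6 oxysterol and sterol ester genes. With RBC they were 1 and 0, 1 and 2, 0 and 0, 1 and 0, and 0 and 0.

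Aacs, which makes acetoacetyl-CoA for sterol synthesis, was higher with RBC by 0.45 ± 0.07 (adjusted p = 0.002), and Acat1, a thiolase, without RBC by 0.60 ± 0.12 (adjusted p = 0.0031). Lpin1, a phosphatidate phosphatase, was higher in high-fat macrophages by 1.06 ± 0.12 without RBC and 0.58 ± 0.08 with RBC (adjusted p = 2.5e-05 and 8.3e-04). Lower in both were Trib1, a pseudokinase, at -1.08 ± 0.14 and -0.69 ± 0.10 (adjusted p = 9.0e-05 and 6.9e-04), and Mylip, a ubiquitin ligase, at -0.77 ± 0.14 and -0.43 ± 0.10 (adjusted p = 0.002 and 0.022). The second Mylip call was lost without any of 6 single arrays (adjusted p = 0.061 to 0.099).

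The elongation genes Hacd3 and Elovl5 were higher without RBC, by 0.65 ± 0.10 and 0.48 ± 0.11 (adjusted p = 3.6e-04 and 0.0086). Elovl5 lost that call without replicate 2 of chow macrophages without RBC (adjusted p = 0.06) or replicate 2 of high-fat macrophages without RBC (adjusted p = 0.071), and its rise of 0.40 with chow RBC in chow macrophages was lost in 8 of the settings that leave out 1 array (adjusted p = 0.052 to 0.18) and when the fit used only the arrays compared (adjusted p = 0.051). Acss2, the cytosolic acetyl-CoA synthetase, ran against the fatty acid genes above: it was lower by 0.61 ± 0.11 in high-fat macrophages without RBC (adjusted p = 0.0014) and, in chow macrophages, lower by 0.67 with chow and by 0.53 with high-fat RBC (adjusted p = 0.0013 and 0.0069). Its high-fat RBC call was lost without replicate 2 of either group (adjusted p = 0.072 and 0.056).

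The LXR gene Nr1h3 and its targets Abca1, the cholesterol exporter, and Pltp, the phospholipid transfer protein, were lower in high-fat macrophages without RBC. The differences were -0.71 ± 0.10 for Nr1h3 (adjusted p = 3.2e-04), -0.97 ± 0.11 for Abca1 (adjusted p = 2.4e-05) and -0.62 ± 0.10 for Pltp (adjusted p = 6.9e-04). Abca1 read 9.17 and 9.22 in chow macrophages and 8.13 and 8.33 in high-fat macrophages without RBC, and 9.01 to 9.11 in high-fat macrophages with RBC. It rose in high-fat macrophages by 0.83 with chow and by 0.81 with high-fat RBC (adjusted p = 0.0014 and 0.0016), calls lost when only the compared arrays were fitted (adjusted p = 0.051 and 0.062). Lpcat3, an LXR target that remodels phospholipids, was higher with RBC by 0.32 ± 0.07 (adjusted p = 0.017), a call lost without any of 4 single arrays (adjusted p = 0.073 to 0.1). Abcg1, the second exporter, read 8.98 to 9.26 and Ch25h, which makes an oxysterol, 4.31 to 5.11 over all arrays, and neither was called in any comparison.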

How the data were processed

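Mouse peritoneal macrophages in 6 groups of 2 were measured on 12 arrays. RNA was extracted with RNeasy, per the labels' protocols, then amplified with WTA-Ovation FFPE V2 and labelled with the Encore biotin module. The authors deposited log2 values per probe set; their summarization and normalization are not given in the sources used here, and the log2 scale was inferred from their range. Of 35557 probe sets, 35556 had values, and 21789 had 1 gene symbol in GEO's platform annotation, 1621 several and 12146 were not listed. The brightest of the probe sets of a gene was kept, leaving 19938 genes.

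With limma 3.58.1 (R 4.3.3), 1 model of group means over the 12 arrays was fitted by lmFit and eBayes (residual df 6, prior df 7.69). It tested 11 contrasts, and p was adjusted by Benjamini-Hochberg over all genes, with 0.05 as the threshold. Errors are standard errors of these fits. The fit was tested on simulated data. The genes and lists, which were 5 pathway and 10 cell type lists, were chosen with earlier results of these data known. Values on every array are given for called genes, up to the 14 with the largest difference, and for 5 regulators; pathway genes are named by p, up to 5 of a list, with some named whatever their result. Promoters are RefSeq windows. Alternatives were quantile normalization, a filter on low values, a variance trend, replicate blocks, the mean of probe sets, only the arrays compared, a threshold of 0.10 and leaving out each array.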

Additional observations from a re-analysis of the deposited data

Results flagged for a closer look

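For 8 genes, 2 of the 31 and 6 of the 54 further pathway genes, the response to RBC differed between chow and high-fat macrophages by a test of that difference (high-fat minus chow, limma), where 5.67% of all genes were called. Mvd gave 0.66 ± 0.15 (adjusted p = 0.018) and Dhcr7 gave -0.82 ± 0.15 (adjusted p = 0.005), and their array values are given above. Of the further pathway genes, Abca1 gave 0.77 ± 0.13 (adjusted p = 0.0028), Pltp 0.86 ± 0.12 (adjusted p = 7.7e-04), Acss2 0.86 ± 0.13 (adjusted p = 0.0013) and Hacd3 -0.64 ± 0.12 (adjusted p = 0.0052). Nr1h3 gave 0.51 ± 0.13 (adjusted p = 0.031), and this call was lost in 9 of the 12 settings that leave out 1 array (adjusted p = 0.057 to 0.17). Acat1 gave -0.54 ± 0.14 (adjusted p = 0.045), and lost its call in 11 of those 12 settings (adjusted p = 0.055 to 0.22) and with the replicate block (adjusted p = 0.06). In all 8 the arrays without RBC also enter the difference between macrophage diets.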

How the results depend on the processing

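Of 43 called comparisons of the 31 genes, 24 kept their call and direction in every setting, 19 lost the call in at least 1 and 0 changed direction. Among values named but not called, 3 changed sign when 1 array was left out: Mvd between diets without RBC ranged from -0.16 to 0.22, Dhcr7 with high-fat RBC in high-fat macrophages from -0.19 to 0.01, and Ebp between diets with RBC from -0.05 to 0.13. Leaving out 1 array gave counts of 2 to 7 and 2 to 6 for chow and high-fat RBC in chow macrophages (4 each), 0 to 3 and 0 to 1 in high-fat macrophages (0 and 1), 8 to 15 and 13 to 22 for macrophage diet without and with RBC (13 and 19), and 1 to 4 for the difference in response (2). The chow RBC count in high-fat macrophages was 1 with an intensity trend and 1 at an adjusted p below 0.10, and the high-fat RBC count was 0 when only the arrays compared were fitted. The deviations of same-numbered replicates had a median correlation of -0.02 over 15 pairs of groups. Over the 6 pairs within a macrophage diet the median was 0.00, with a range of -0.08 to 0.34. The labels do not say whether a number marks the same animal across groups, and these correlations cannot show it. The numbers were not taken as pairs. The replicate block gave 14 and 18 calls for macrophage diet without and with RBC, and Mvk with RBC lost its call (adjusted p = 0.062). Limits are 2 arrays per group and unknown signal over background.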
